A study of Mus musculus with 22 samples.

Results

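Messenger RNA of 8 genes of extracellular proteolysis was followed in islets of Langerhans from 22 male mice. The genes were Plau, Plaur, Mmp2, Mmp9, Mmp14, Timp1, Timp2 and Timp3, found by symbol among 57010 gene IDs, each on 1 row. The mice were 5.5 weeks old by the series description, while the column labels give 5 to 6 weeks, and each library came from the islets of 1 mouse. A pair of genotypes was crossed with 2 genetic backgrounds, which the labels name C57 and Mixed. Wild-type mice (WT) carried no change in MafA, the transcription factor that activates insulin genes in mature beta cells. Heterozygous mice (Het) carried 1 MafA allele with the S64F substitution. On C57 there were 5 WT and 6 Het mice, and on Mixed likewise 5 WT and 6 Het mice. No treatment is named, and neither are the strains that make up Mixed. Libraries were numbered group by group, so library order and group cannot be told apart.

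Urokinase, encoded by Plau, is a secreted serine protease that cuts plasminogen to plasmin. Its receptor Plaur holds it at the cell surface and binds integrins and vitronectin. Matrix metalloproteinases (MMPs) are zinc enzymes that cut collagens, laminins and other matrix proteins. Mmp14 is anchored in the membrane and, with Timp2 as a bridge, activates the secreted gelatinase Mmp2, while Mmp9 is the other gelatinase. The tissue inhibitors of metalloproteinases (TIMPs) bind the active sites of these enzymes, and Timp3 stands apart in binding to the matrix itself and in blocking several ADAM proteases. Islets sit within a basement membrane laid down largely by their capillaries, and stromal, endothelial and immune cells are usual sources of these proteins.

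Sequence before the transcription start is shown for Plaur, Mmp14 and Timp2, because Plaur holds TGANTCA, Mmp14 holds TGCTGA and Timp2, which rose with them, holds neither of these. RefSeq promoter windows on GRCm38.p6, a build other than the one the deposited table was made on, matched 5 of the 8 symbols. Plau, Mmp2 and Mmp9 are the other 3. Each sequence below is the 250 bases before the gene start, 5′ to 3′ on the gene's own strand. Capitals mark TGANTCA, the AP-1 element, in Plaur, and TGCTGA, the core of the element that MAF proteins bind, in Mmp14.
Plaur, chr7:24462233-24462482, plus strand: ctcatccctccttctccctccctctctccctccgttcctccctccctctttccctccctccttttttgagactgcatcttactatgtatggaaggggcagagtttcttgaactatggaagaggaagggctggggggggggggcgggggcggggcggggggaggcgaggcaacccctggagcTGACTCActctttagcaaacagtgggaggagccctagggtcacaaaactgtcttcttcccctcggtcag
Mmp14, chr14:54431348-54431597, plus strand: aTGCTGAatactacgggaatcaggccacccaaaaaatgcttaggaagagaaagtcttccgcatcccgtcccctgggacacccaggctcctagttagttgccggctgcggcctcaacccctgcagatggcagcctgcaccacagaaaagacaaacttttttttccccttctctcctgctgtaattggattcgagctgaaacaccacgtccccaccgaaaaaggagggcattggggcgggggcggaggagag
Timp2, chr11:118355412-118355661, minus strand: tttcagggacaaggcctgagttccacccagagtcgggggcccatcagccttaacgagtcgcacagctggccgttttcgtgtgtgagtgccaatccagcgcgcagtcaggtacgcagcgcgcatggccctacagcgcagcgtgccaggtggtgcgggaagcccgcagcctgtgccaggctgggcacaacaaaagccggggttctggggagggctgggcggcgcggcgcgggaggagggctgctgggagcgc
Motifs were searched on both strands of the whole windows, which run to 50 bases after the start. TGANTCA occurred once, as TGACTCA at position -69 from the Plaur start, and in none of the other 4 windows. TGCTGA occurred once, at position -249 from the Mmp14 start. GGGCGG, the GC box, occurred in all 5 windows, with 3 matches in Plaur, 2 in Mmp14, 1 in Timp1, 1 in Timp2 and 2 in Timp3, and the second and the third match in Plaur share a base. Of 32851 RefSeq windows of this length, 7.81% held TGANTCA, 19.5% held TGCTGA and 35.7% held GGGCGG. A match describes the letters only.

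The values are TPM, transcript abundances corrected for transcript length and scaled to the same total in every library, so that levels of different genes can be set side by side. They keep no read depth, and no counting interval can be given. On C57, Mafa read 441 ± 87.6 TPM in WT (SD, n = 5) and 117 ± 23.2 TPM in Het (n = 6). On Mixed it read 598 ± 143 TPM in WT (n = 5) and 152 ± 37.1 TPM in Het (n = 6). The genotypes did not overlap on either background. Mafa mRNA of the WT and S64F alleles cannot be told apart in a gene total. Beta cell markers summed to medians of 440000 and 352000 TPM in C57 WT and Het and 429000 and 321000 TPM in Mixed WT and Het, so the labelled tissue carried its defining markers. Across 16749 genes with at least 1 TPM in at least 5 libraries, limma called 4422 higher and 1939 lower in Het on C57, and 5137 higher and 2256 lower on Mixed (Benjamini-Hochberg adjusted p under 0.05). Median-of-ratios scaling moved that split to 3293 and 3299 on C57 and to 3662 and 3750 on Mixed, and lowered the median change of all genes on Mixed from 0.104 to -0.01 on the log2 scale.

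Timp3 had the highest level of the 8 genes in every group, followed by Timp2, Plau and Mmp14 in the order of their means. Timp3 averaged 45.5 TPM in C57 WT, 3.72 times Timp2, and was above Timp2 in all 22 libraries. Plau and Mmp14 overlapped in range in every group but C57 Het. Timp1, Plaur and Mmp2 came next at 0.728 to 1.80 TPM in C57 WT, C57 Het and Mixed WT, and neighbours among them overlapped in range in each group. In Mixed Het the 5 genes from Plau down to Plaur lay between 7.92 and 3.64 TPM, and each neighbouring pair overlapped. Mmp9 was lowest throughout.

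**Figure D1:**
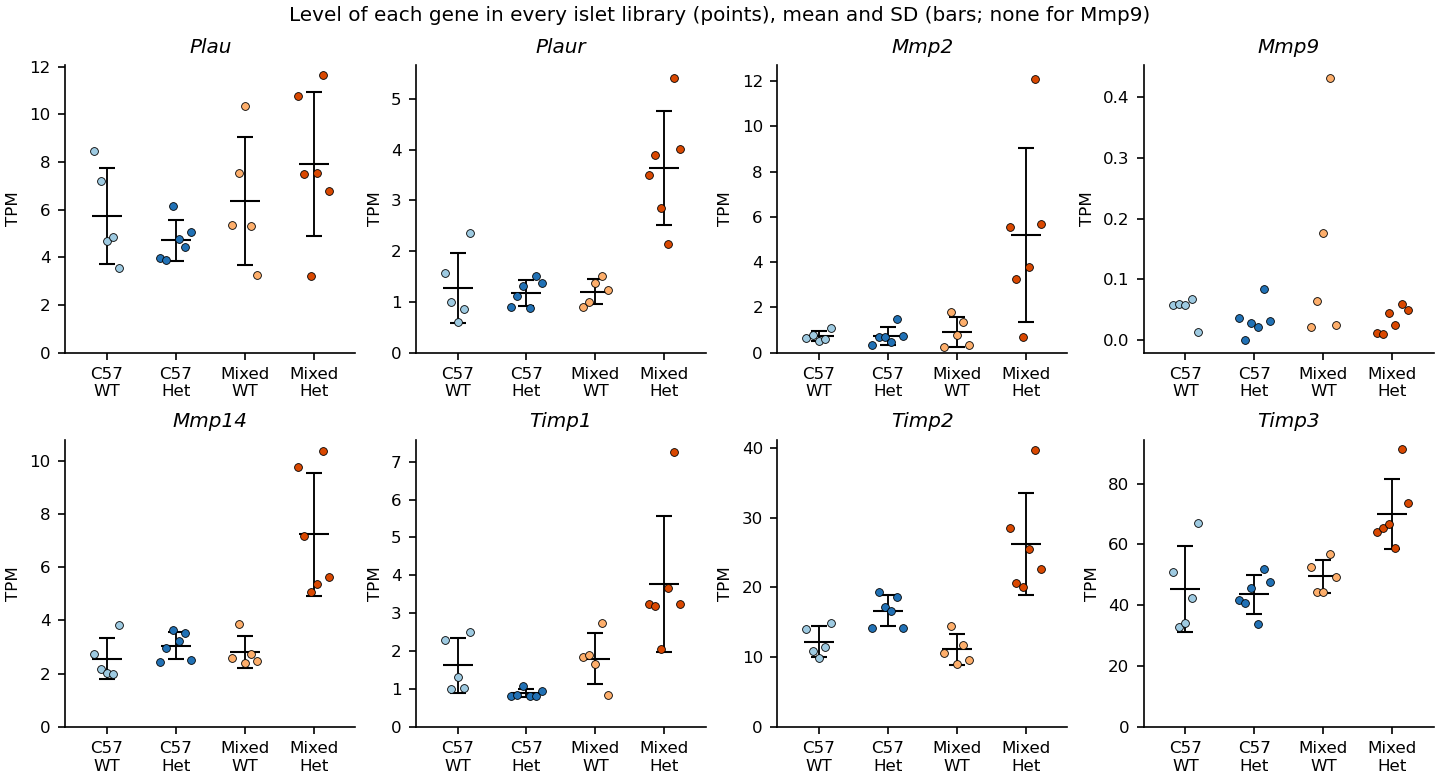
Level of each of the 8 genes (vertical axis, TPM, own scale per panel) in every library, grouped by background and genotype. Points are mice and bars show the mean and SD, left out for Mmp9, which has a library listed at 0. Mixed Het points lie above all Mixed WT points for Plaur, Mmp14, Timp2 and Timp3, and Mmp9 stays at or below 0.430 TPM.

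Of the urokinase pair, the receptor rose with the Het genotype on Mixed and the protease did not pass the test. Plaur read 1.56, 0.994, 0.601, 0.857 and 2.35 TPM in the 5 C57 WT mice. The C57 Het mice ran from 0.888 through a median of 1.22 to 1.504 TPM, inside the range of their controls. In Mixed WT the values were 0.895, 1.002, 1.38, 1.51 and 1.23 TPM. Mixed Het mice ran from 2.15 through a median of 3.70 to 5.43 TPM, so that the lowest of them stood above the highest Mixed WT mouse. The means differed 3.02-fold on Mixed, 1.20 ± 0.256 against 3.64 ± 1.12 TPM (SD, n = 5 and 6). The limma log2 difference, on the log2(TPM + 1) scale used for all differences here, was 1.05 (SE 0.18, adjusted p 6.59e-05). On C57 it was -0.016 (SE 0.18, adjusted p 0.954). This scale understates the change of genes near 1 TPM.

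Plau read 8.44, 7.20, 4.69, 4.86 and 3.53 TPM in C57 WT and 3.87 to 6.16 TPM, median 4.59, in C57 Het. Mixed WT mice read 5.34, 7.54, 10.4, 5.31 and 3.26 TPM, and Mixed Het mice 3.23 to 11.6 TPM with a median of 7.52. Both pairs of groups overlapped widely. The log2 difference between genotypes was -0.20 (SE 0.25, adjusted p 0.557) on C57 and 0.27 (SE 0.25, adjusted p 0.402) on Mixed. Plaur mRNA amounted to 21.9% ± 10.8 of Plau mRNA in Mixed WT and 51.1% ± 21.5 in Mixed Het, against 25.9% ± 22.9 and 25.5% ± 5.71 in C57 WT and Het.

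Mmp14, the membrane-anchored collagenase, rose with the Het genotype on Mixed. It read 2.74, 2.19, 2.03, 2.002 and 3.85 TPM in C57 WT and 2.42 to 3.64 TPM, median 3.11, in C57 Het. Mixed WT mice read 2.59, 3.88, 2.38, 2.73 and 2.47 TPM. Mixed Het mice ran from 5.07 through 6.41 to 10.4 TPM, all 6 above every Mixed WT mouse. The means on Mixed were 2.81 ± 0.614 and 7.24 ± 2.32 TPM, a 2.58-fold difference, with a log2 difference of 1.08 (SE 0.17, adjusted p 2.67e-05). On C57 the log2 difference was 0.20 (SE 0.17, adjusted p 0.36).

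Mmp2 had the largest fold difference of the 7 members tested on Mixed. C57 WT mice read 0.637, 0.797, 0.516, 0.609 and 1.08 TPM, and C57 Het mice 0.354 to 1.49 TPM with a median of 0.684. Mixed WT mice read 0.259, 1.80, 0.796, 1.34 and 0.314 TPM. The Mixed Het values were 5.55, 3.24, 0.708, 3.799, 12.1 and 5.67 TPM. Of the 6 Mixed Het mice 5 stood above all Mixed WT mice, while replicate 3, at 0.708 TPM, lay among the controls. Means were 0.901 ± 0.664 and 5.18 ± 3.85 TPM, a 5.75-fold difference, with a log2 difference of 1.52 (SE 0.33, adjusted p 0.000903). Without Mixed Het replicate 5, the highest, the log2 difference was 1.26 and kept its call. Mmp2 reached 1 TPM in 5 Mixed Het libraries and 4 others, so it entered the test only through Mixed Het, the group where it was high, and its calls are no independent support. On C57 it was -0.011 (SE 0.33, adjusted p 0.983).

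Mmp9 did not reach the level needed for a test. It was listed at 0 in 1 C57 Het mouse and elsewhere ran from 0.0104 TPM in a Mixed Het mouse to 0.430 TPM in a Mixed WT mouse. The Mixed Het values, 0.0104 to 0.0592 TPM, were not above those of the other groups. The 8 neutrophil markers, a cell type rich in this gelatinase, were each under 1 TPM in every library and summed to at most 1.22 TPM.

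The 3 TIMPs rose with the Het genotype on Mixed, Timp2 the most. Timp2, the inhibitor that also bridges Mmp14 to Mmp2, read 14.1, 10.9, 9.81, 11.4 and 14.9 TPM in C57 WT and ran from 14.1 through 16.9 to 19.4 TPM in C57 Het. Mixed WT mice read 10.6, 14.5, 8.99, 11.7 and 9.64 TPM, and Mixed Het mice ran from 20.1 through 24.1 to 39.7 TPM. The Mixed groups did not overlap, and 4 of 6 C57 Het mice were above all C57 WT mice. The means on Mixed were 11.1 ± 2.18 and 26.2 ± 7.33 TPM, with a log2 difference of 1.15 (SE 0.15, adjusted p 3.96e-06). On C57, where the means were 12.2 ± 2.16 and 16.7 ± 2.19 TPM, the log2 difference was 0.43 (SE 0.15, adjusted p 0.0311). That C57 call ended under median-of-ratios scaling (0.31, adjusted p 0.0947), quantile normalization (0.30, adjusted p 0.117) and a total that leaves out the 13 most abundant genes (0.33, adjusted p 0.0853), and without any 1 of C57 Het replicates 2 and 5 and C57 WT replicates 2, 3 and 4 (adjusted p 0.0601 to 0.0834).

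Timp1, the small inhibitor induced in many injured tissues, read 2.30, 0.992, 1.31, 1.02 and 2.49 TPM in C57 WT. C57 Het mice were tightly grouped at 0.810 to 1.09 TPM, median 0.8292, and 5 of the 6 lay below all their controls. The log2 difference on C57 was -0.44 (SE 0.21, adjusted p 0.0999), and it passed the threshold with that same total (-0.65, adjusted p 0.0437) and in a fit of the C57 libraries alone (adjusted p 0.0461). Mixed WT mice read 1.83, 1.90, 1.66, 2.73 and 0.845 TPM, and Mixed Het mice ran from 2.06 through 3.25 to 7.26 TPM, with 5 of 6 above all Mixed WT mice. The means were 1.80 ± 0.673 and 3.78 ± 1.79 TPM, with a log2 difference of 0.74 (SE 0.21, adjusted p 0.0062). In GENCODE M21 Timp1 lies within Syn1 on the opposite strand. Syn1 averaged 32.7 TPM in WT and 48.1 in Het on C57, and 34.1 and 52.8 on Mixed. Whether the counting used strand is not given in the sources used here, so reads of both genes may not have been told apart.

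Timp3, the matrix-bound inhibitor, read 50.8, 32.8, 34.1, 42.4 and 67.2 TPM in C57 WT and ran from 33.7 through 43.6 to 51.8 TPM in C57 Het. Mixed WT mice read 52.5, 44.5, 44.5, 56.8 and 49.2 TPM, and all 6 Mixed Het mice were higher, from 58.9 through 66.0 to 91.5 TPM. The log2 difference was -0.023 (SE 0.15, adjusted p 0.92) on C57 and 0.48 (SE 0.15, adjusted p 0.0123) on Mixed, where the means differed 1.41-fold. The Mixed call ended under median-of-ratios scaling (0.35, adjusted p 0.0943), quantile normalization (0.39, adjusted p 0.057) and the total without abundant genes (0.37, adjusted p 0.0714). Timp3 lies within Syn3 on the opposite strand, which averaged 0.311 to 0.414 TPM.

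In the Het against WT comparison on C57, 1 of the 7 members tested passed the threshold, where 38% of all genes passed and 26.4% of all genes were called higher. None of the 7 had groups that did not overlap, against 21% of all genes. In the same comparison on Mixed, 6 of 7 passed, all higher, where 44.1% of all genes passed and 30.7% were called higher. Of the 7, 4 did not overlap between genotypes, against 23.6% of all genes. The median log2 difference of the members was -0.016 on C57 and 1.05 on Mixed, beside 0.083 and 0.104 for all genes tested. Leaving out Mmp2, 5 of 6 members passed on Mixed, and the medians were -0.02 and 0.89. Plaur, Mmp2, Mmp14, Timp1 and Timp2 kept their Mixed calls under each scaling tried and without each single library.

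The interaction term, the Het minus WT difference on Mixed minus that on C57, tests whether the backgrounds differed. It was positive and past the threshold for 5 of 7 members, where 7.36% of all genes passed and 4.62% were positive, and for 4 of 6 when Mmp2 is left out. The term was 1.06 for Plaur (SE 0.25, adjusted p 0.015), 1.18 for Timp1 (SE 0.29, adjusted p 0.0208), 0.88 for Mmp14 (SE 0.24, adjusted p 0.0285), 0.72 for Timp2 (SE 0.21, adjusted p 0.0437) and 1.54 for Mmp2 (SE 0.47, adjusted p 0.0494). Plau, at 0.48 (SE 0.36, adjusted p 0.417), and Timp3, at 0.51 (SE 0.21, adjusted p 0.135), did not pass. The Plaur and Timp1 terms kept their calls in all 22 fits that each left out 1 library. The Mmp14 term lost its call in 6 of those fits (without C57 Het replicates 1 or 6, C57 WT replicates 1 or 5, Mixed Het replicate 5 or Mixed WT replicate 3, adjusted p 0.0503 to 0.0558), the Timp2 term in 14 (adjusted p up to 0.0841) and the Mmp2 term in all but those without C57 Het replicate 5, Mixed Het replicate 3 or Mixed WT replicate 2 (adjusted p up to 0.087). With no filter on level, the Mmp14, Timp2 and Mmp2 terms were not called (adjusted p 0.0644, 0.0926 and 0.111). The Mmp2 term also lost its call with eBayes without trend (adjusted p 0.0517) and a pseudocount of 0.1 TPM (adjusted p 0.0568), and the Timp2 term with arrayWeights (adjusted p 0.0794). Mafa itself had an interaction term of -0.071 (SE 0.26, adjusted p 0.886).

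Between backgrounds, limma called 0 of 7 members in WT mice, where 11.3% of all genes were called and 6.13% did not overlap. The unadjusted p for the 7 members ran from 0.306 to 0.992, so 0 were under 0.05. Among Het mice 6 of 7 members were higher on Mixed than on C57, where 20.5% of all genes were called and 13.3% of all genes were called higher. Leaving out Mmp2, these were 5 of 6. Of the members 5 did not overlap, against 9.85% of all genes. Timp1 led by fold among the non-overlapping genes, at 0.885 ± 0.112 TPM in C57 Het and 3.78 ± 1.79 in Mixed Het, a 4.27-fold difference with a log2 difference of 1.27 (SE 0.20, adjusted p 0.000126). Plaur differed by 1.06 (SE 0.17, adjusted p 0.000157), Mmp14 by 0.99 (SE 0.16, adjusted p 0.000189) and Mmp2 by 1.61 (SE 0.32, adjusted p 0.00113). Timp3 differed by 0.67 (SE 0.14, adjusted p 0.00217) and Timp2 by 0.59 (SE 0.14, adjusted p 0.00601). Plau differed by 0.57 (SE 0.24, adjusted p 0.0991), and by 0.77 (adjusted p 0.0134) without Mixed Het replicate 3. This comparison and the genotype comparison on Mixed share the 6 Mixed Het libraries.

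**Figure D2:**
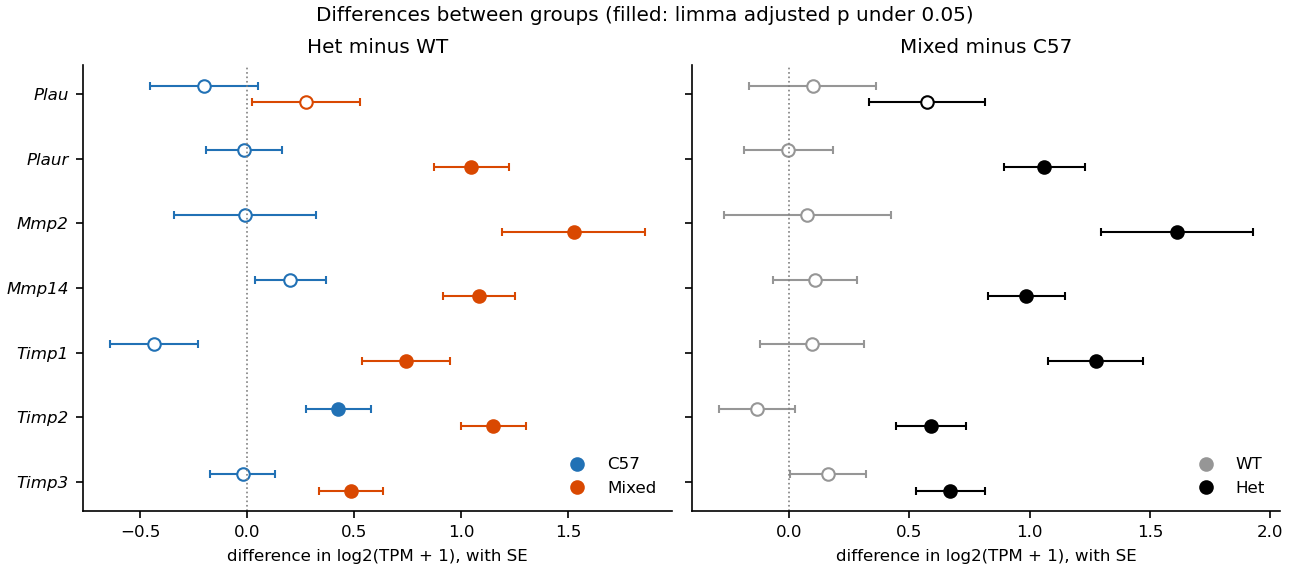
Difference in log2(TPM + 1) with its SE (horizontal axis) for the 7 members tested, Het minus WT on each background (left) and Mixed minus C57 in each genotype (right). Filled points have a limma adjusted p under 0.05. On Mixed, 6 points are filled, from 0.48 for Timp3 to 1.52 for Mmp2, while on C57 only Timp2 is filled.

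Summed over Mmp2, Mmp9 and Mmp14, metalloproteinase mRNA was 3.34 ± 0.953 TPM in WT and 3.82 ± 0.81 in Het on C57, and 3.86 ± 1.26 and 12.5 ± 5.83 on Mixed. The 3 TIMPs summed to 59.3 ± 16.8, 61.1 ± 6.77, 62.4 ± 6.07 and 100 ± 19.4 TPM in the same order. The TIMP sum thus exceeded the sum of these 3 metalloproteinases in every library. Other metalloproteinases are left out of that sum, and some had higher levels. Mmp15 and Mmp24 averaged 8.03 and 6.23 TPM in C57 WT, and 10.1 and 8.42 TPM in Mixed Het. The percentages that follow hold for the 3 members only. The metalloproteinase sum was 5.68% ± 0.75, 6.25% ± 1.0, 6.19% ± 1.99 and 12.1% ± 3.65 of the TIMP sum, and the Mixed Het mice ran from 6.57% to 16.3%. Within the TIMP sum, Timp2 made up 21.1% in WT and 27.5% in Het on C57, against 17.8% and 26.0% on Mixed. The share of Timp3 was 76.2%, 71.1%, 79.3% and 70.4%.

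**Figure D3:**
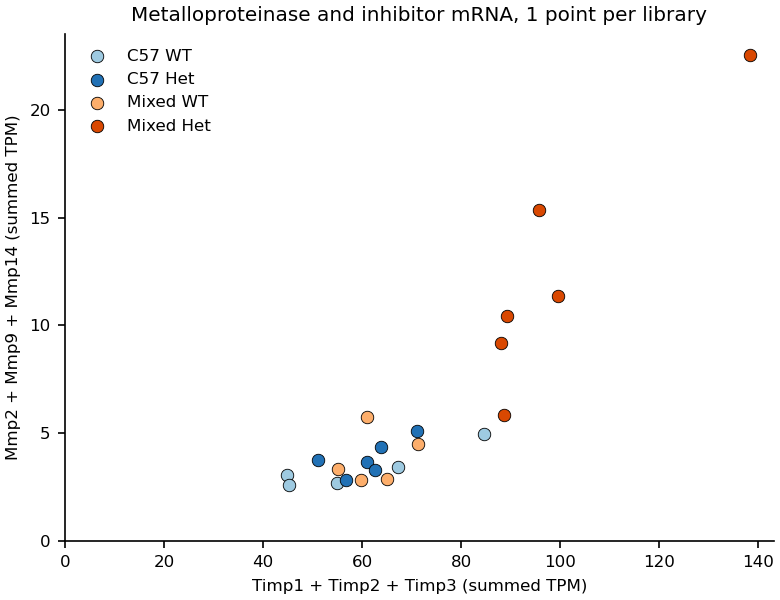
Summed TPM of Mmp2, Mmp9 and Mmp14 (vertical axis) against summed TPM of Timp1, Timp2 and Timp3 (horizontal axis), 1 point per library, coloured by group. The 6 Mixed Het libraries lie to the right of and above the others, at TIMP sums of 88.0 to 139 TPM and metalloproteinase sums of 5.83 to 22.6 TPM.

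The Mixed Het mice differed among themselves. Replicate 5 was highest of its group in 7 of 7 members, and replicate 3 was lowest in 5. In C57 WT, replicate 5 was highest in 6 of 7 members and lowest in Plau. Without both replicate 5 libraries, a check chosen after the values were seen, 6 members were still called on Mixed, 1 on C57, and 2 of 5 interaction terms, those of Plaur and Timp1, remained past the threshold. Without Mixed Het replicate 5 alone, the Mixed log2 differences were 0.94 for Plaur, 0.98 for Mmp14, 0.57 for Timp1, 1.02 for Timp2 and 0.41 for Timp3, each still called.

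**Figure D4:**
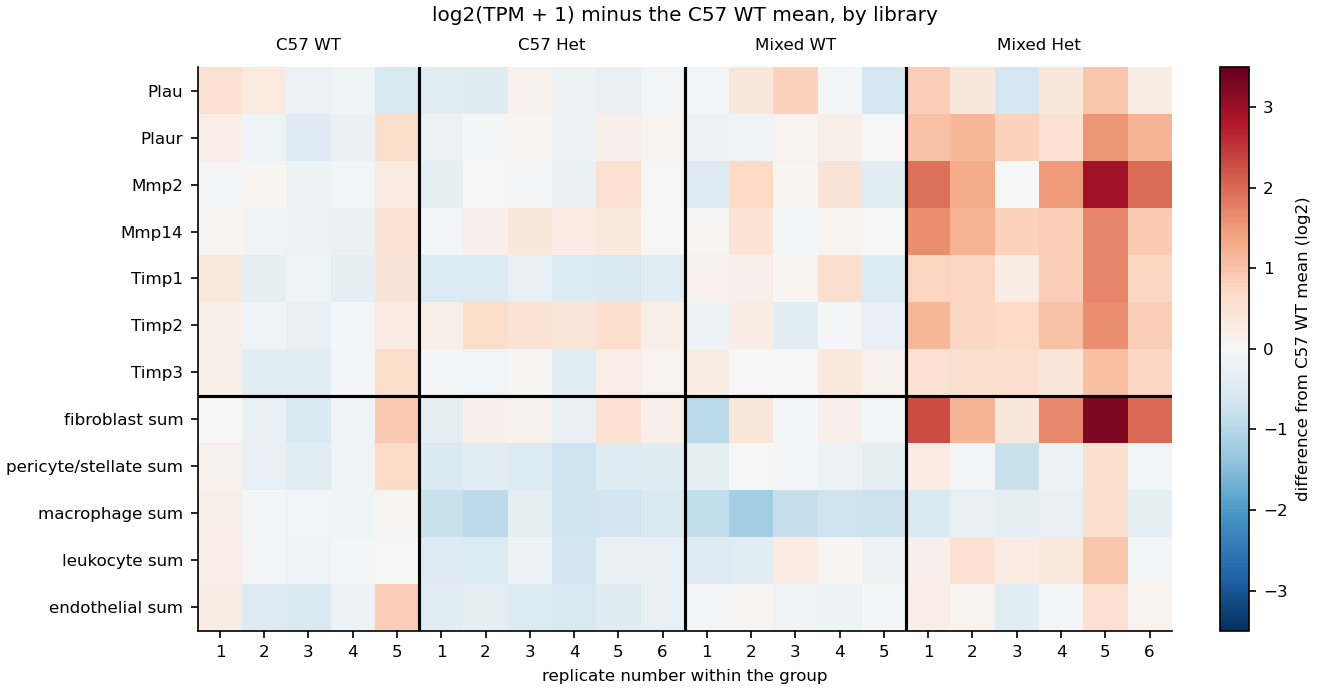
Difference of log2(TPM + 1) from the C57 WT mean (colour) for the 7 members tested and for the summed markers of 5 cell types (rows) in all 22 libraries (columns). Mixed Het replicate 5 is the darkest column, Mixed Het replicate 3 is pale for Mmp2 and for the fibroblast sum, and C57 WT replicate 5 is the darkest of its group.

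Fibroblast and macrophage markers were also called higher in Het on Mixed. Beside all marker counts here, 30.7% of all genes tested were called higher in Het on Mixed and 26.4% on C57. For marker counts called lower, 2256 of the 16749 genes tested were lower in Het on Mixed and 1939 on C57. In whole islets, more cells of a type and more RNA per cell cannot be told apart. The 8 fibroblast markers summed to a median of 34.1 TPM in C57 WT (25.2 to 70.8), 41.3 in C57 Het (29.1 to 53.9), 35.6 in Mixed WT (18.8 to 48.7) and 135 in Mixed Het (48.7 to 364). All 6 fibroblast markers tested were called higher in Het on Mixed and 0 of 6 on C57 by limma (0 also at an unadjusted p under 0.05). Pdgfra, the surface marker of fibroblasts, did not pass the filter and was not tested. It averaged 0.78 ± 0.684 TPM in Mixed Het (0.103 to 2.06) and was under 1 TPM in every library of the other 3 groups. The Mixed Het fibroblast sums were 183, 85.8, 48.7, 121, 364 and 149 TPM in replicate order, with replicate 5 highest and replicate 3 lowest, as for Mmp2. In replicate 3, where the fibroblast sum was no higher than in the highest Mixed WT library, Plaur was 2.84, Mmp14 5.07, Timp2 20.1 and Timp3 66.6 TPM, each above all Mixed WT mice. Mmp2 and Timp1 in that library, at 0.708 and 2.06 TPM, were inside the Mixed WT range. This library was singled out after its values were seen, and the sum hides differences among its markers. Every Mixed Het library had at least 15.1 TPM of Col1a1 and 11.7 TPM of Col1a2. The highest Mixed WT values were 10.2 and 9.05 TPM. The lowest Mixed Het values of the other fibroblast markers lay inside the Mixed WT range. Macrophage markers summed to 197 TPM in replicate 3, above all Mixed WT libraries.

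For the sums that follow, medians are given for WT and Het on C57 and then for WT and Het on Mixed. The 9 macrophage markers summed to medians of 233, 153, 140 and 199 TPM, with ranges of 221 to 281, 129 to 194, 106 to 147 and 170 to 361. Of 7 tested, 7 were called higher in Het on Mixed, and 2, C1qa and C1qb, lower on C57. C1qa made up most of these sums, with means of 178 TPM in C57 WT and 117 TPM in Mixed Het, while Lyz2 averaged 6.64 and 24.7 TPM and Csf1r 3.75 and 6.48 TPM in those groups. The general leukocyte sum had medians of 17.3, 13.8, 15.7 and 22.8 TPM, with 2 of 3 markers called higher on Mixed and 0 called on C57 by limma. On C57, 2 had an unadjusted limma p under 0.05 and were lower in Het, where the median log2 difference of the 3 was -0.38. Pericyte and stellate cell markers had medians of 164, 132, 157 and 172 TPM, with 1 of 8 called higher on Mixed and 4 lower on C57. Endothelial markers had medians of 404, 350, 443 and 507 TPM, with 0 of 8 called on Mixed by limma (1 at an unadjusted p under 0.05) and 5 lower on C57, and the highest sum, 857 TPM, was in C57 WT replicate 5. Schwann cell markers had medians of 14.1, 12.5, 18.4 and 28.4 TPM, with 3 of 5 called higher on Mixed, 2 of which entered the test only through Mixed Het. The interaction term was positive and past the threshold in 4 of 6 fibroblast, 5 of 7 macrophage, 3 of 3 general leukocyte and 2 of 8 pericyte and stellate markers. It was so in 0 of 8 endothelial markers and in 1 of 5 Schwann cell markers, Sox10, which entered the test only through Mixed Het. Over all genes tested, 4.62% had such a term. The part of these cells in the member changes was not tested.

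Acinar markers were called higher in Het in 7 of 7 tested on C57 and 1 of 7 on Mixed by limma (5 at an unadjusted p under 0.05). Their sums had medians of 261, 675, 412 and 784 TPM, and 0 of 7 passed the interaction test. Duct markers were called higher in 2 of 7 on C57 and 5 of 7 on Mixed, where 1 was lower, with medians of 470, 489, 593 and 772 TPM. Alpha cell markers were called higher in 5 of 5 on both backgrounds, with medians of 42000, 88800, 19000 and 92300 TPM. Delta and PP cell markers were called higher in 3 of 4 on both, and beta cell markers lower in 1 of 8 on C57 and 6 of 8 on Mixed. Of the T and B cell markers 1 of 8, Cd79a, was tested and it was lower in Het on both backgrounds. No mesothelial marker of 4 could be tested, and their sum reached 9.22 TPM, in Mixed Het replicate 5. The interaction was called positive in 1 of 7 duct, 2 of 5 alpha and 0 of 4 delta and PP cell markers, and negative in 3 of 8 beta cell markers, where 7.36% of all genes passed either way. Whether these cells had a part in the member changes was not tested.

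**Figure D5:**
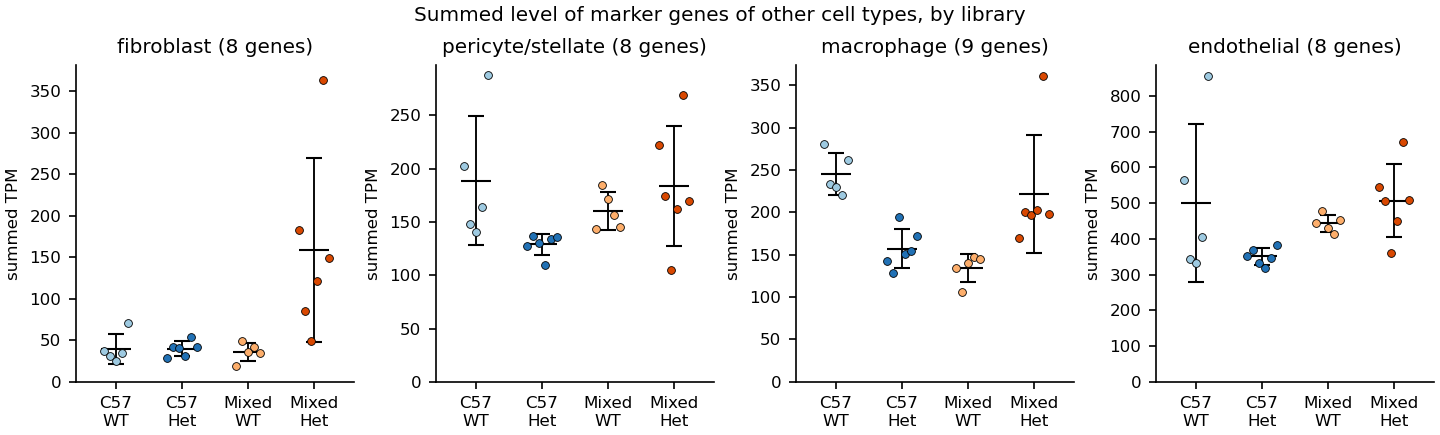
Summed TPM of fibroblast, pericyte and stellate, macrophage and endothelial markers (vertical axes) in every library by group, with mean and SD. The fibroblast sum reaches 364 TPM in Mixed Het and no more than 70.8 TPM in the other groups, while the macrophage sums, mostly C1qa, are 221 to 281 TPM in C57 WT and 106 to 147 TPM in Mixed WT.

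Related genes were taken from 6 lists of 72 genes, of which 47 could be tested. Over all genes tested, 30.7% were called higher in Het on Mixed, 26.4% were called higher on C57, and 4.62% had a positive interaction call. Counts in this and the 6 list paragraphs that follow are to be read beside these shares, and several are near or below them. For counts called lower, 2256 of the 16749 genes tested were lower in Het on Mixed and 1939 on C57. On Mixed, 24 of the 47 were called higher in Het and 0 lower by limma, and 21 higher and 1 lower without both replicate 5 libraries. On C57, 10 were called higher and 3 lower, a split that median-of-ratios scaling turned to 8 higher and 11 lower, while on Mixed that scaling gave 17 higher and 0 lower. The interaction was past the threshold for 7 positive and 1 negative term, for 10 and 2 under median-of-ratios scaling, and for 4 and 1 without both replicate 5 libraries. Adam12, Adamts2, Fn1 and Mmp28 entered the test only through Mixed Het, and Tfpi2 only through Mixed WT, so their calls are no independent support. Among the other 42 genes, 21 were higher and 0 lower on Mixed, and 10 higher and 1 lower on C57.

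In the plasminogen system, 2 of 9 tested genes were higher and 1 lower on C57, and 6 of 9 higher on Mixed. Plat, the tissue plasminogen activator and the other enzyme that makes plasmin, rose on both backgrounds. It went from 3.93 ± 0.675 to 13.1 ± 2.11 TPM on C57 and from 4.93 ± 0.547 to 18.3 ± 4.76 TPM on Mixed, with log2 differences of 1.51 (adjusted p 6.05e-08) and 1.68 (adjusted p 6.48e-09) and an interaction of 0.17 (adjusted p 0.62). In both Het groups its mean level exceeded that of Plau, which passed the test on neither background. Lrp1, the scavenger receptor that takes up protease and inhibitor complexes, rose by 0.65 (adjusted p 0.00106) and 1.10 (adjusted p 2.09e-06). Serpine2, an inhibitor of urokinase and thrombin, rose on Mixed from 3.46 ± 0.3999 to 11.4 ± 3.81 TPM (1.43, adjusted p 2.84e-07). It was 0.39 higher on C57 (adjusted p 0.0523), where it was called higher after quantile normalization (0.37, adjusted p 0.0438). Its interaction was 1.04 (adjusted p 0.00772). S100a10, a subunit of a plasminogen receptor, went opposite ways, from 94.8 ± 6.27 to 59.8 ± 6.36 TPM on C57 (-0.66, adjusted p 0.00161) and from 60.1 ± 18.9 to 86.4 ± 16.6 TPM on Mixed (0.55, adjusted p 0.00518). Its WT groups also differed, with Mixed lower than C57 (-0.70, adjusted p 0.00519).

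Of 20 other metalloproteinases 6 could be tested, and 1 was higher and 1 lower on C57 and 5 higher on Mixed. Mmp12, the macrophage elastase, rose on Mixed from 1.96 ± 1.13 to 5.37 ± 1.995 TPM (1.15, adjusted p 0.000379), with all Het mice above all WT mice, and was 0.40 higher on C57 (adjusted p 0.174). Mmp23, an unusual membrane-tethered member, rose by 0.48 on Mixed (adjusted p 0.0166). The membrane-type enzymes Mmp15 and Mmp24 rose by 0.47 (adjusted p 0.0227) and 0.30 (adjusted p 0.0305) on Mixed, and lost those calls under all 3 scalings tried. Mmp24 also rose by 0.35 on C57 (adjusted p 0.0151), and Mmp28 fell there by 0.33 (adjusted p 0.0493), calls that ended without both replicate 5 libraries.

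Of the other inhibitors 3 of 6 were tested. Cst3, which encodes cystatin C, an inhibitor of cysteine proteases, rose from 637 ± 61.1 to 945 ± 41.1 TPM on C57 (0.57, adjusted p 2.92e-05) and from 626 ± 61.9 to 1168 ± 132 TPM on Mixed (0.90, adjusted p 4.2e-08). Tfpi2, a matrix-associated serine protease inhibitor, fell by 0.44 on C57 (adjusted p 0.0483, and 0.0701 after quantile normalization) and was -0.18 on Mixed (adjusted p 0.421), where it was called lower without both replicate 5 libraries (-0.34, adjusted p 0.0404).

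Among ADAM and ADAMTS proteases 3 of 11 tested were higher on C57 and 4 of 11 on Mixed, among them Adam12 and Adamts2. Adamts2, which trims procollagen, rose on Mixed from 0.571 ± 0.131 to 2.39 ± 1.35 TPM (1.02, adjusted p 0.000209), with 0 libraries at 1 TPM outside Mixed Het, and Adam8, a protease of leukocytes, from 1.68 ± 0.241 to 3.0 ± 0.704 TPM (0.57, adjusted p 0.00159). On C57 they differed by 0.16 (adjusted p 0.53) and -0.015 (adjusted p 0.941). Adam9 rose on C57 by 0.61 (adjusted p 0.000108) and was 0.19 higher on Mixed (adjusted p 0.124). Adamts9 rose on both, by 0.36 (adjusted p 0.0456, and 0.0838 under median-of-ratios scaling) and 0.48 (adjusted p 0.00925). The sheddase Adam10 rose by 0.27 on C57 (adjusted p 0.0403), a call that ended under all 3 scalings.

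Of 7 cell surface partners all were tested, and 3 were higher on C57 and 4 on Mixed. Bsg, or basigin, which induces metalloproteinases in neighbouring cells, rose from 520 ± 36.6 to 648 ± 37.5 TPM on C57 (0.32, adjusted p 0.000813) and from 461 ± 42.8 to 772 ± 28.7 TPM on Mixed (0.75, adjusted p 1.96e-08). Itgb1, the common integrin beta chain, rose by 0.59 (adjusted p 8.83e-05) and 0.80 (adjusted p 1.1e-06). Cd44, the hyaluronan receptor that docks metalloproteinases at the membrane, rose on Mixed from 4.54 ± 0.511 to 11.8 ± 3.56 TPM (1.16, adjusted p 1.28e-06), read 9.41 ± 0.774 and 7.80 ± 0.577 TPM on C57 (-0.24, adjusted p 0.184; called lower under median-of-ratios scaling at -0.35, adjusted p 0.0493, and with the total without abundant genes at -0.36, adjusted p 0.0478) and had an interaction of 1.41 (adjusted p 0.000512). Itgav, the vitronectin receptor chain, rose on C57 by 0.79 (adjusted p 2.8e-05) and was 0.045 higher on Mixed (adjusted p 0.778), a value that was -0.052 to -0.086 under the 3 scalings, and its interaction was -0.75 (adjusted p 0.0103). The WT groups themselves differed for both genes, with Cd44 lower on Mixed than on C57 (-0.91, adjusted p 0.000326) and Itgav higher (0.43, adjusted p 0.0222).

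All 11 basement membrane genes were tested, with 0 called on C57 by limma (1 at an unadjusted p under 0.05) and 4 higher on Mixed. Lama5, a laminin chain of capillary basement membrane, rose on Mixed from 7.16 ± 0.922 to 15.4 ± 2.93 TPM (0.99, adjusted p 4.67e-06) and was 0.27 higher on C57 (adjusted p 0.109). Fn1, which encodes fibronectin, rose by 0.68 (adjusted p 0.0446) and Lama4 by 0.44 (adjusted p 0.0272) on Mixed, calls that ended under median-of-ratios scaling and without both replicate 5 libraries.

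Genes most like each member were ranked by Pearson correlation of log2(TPM + 1) over the 22 libraries, which share their groups, so the correlation of deviations from the group means is given second. These are descriptions. Mmp2 was closest to Lum (0.98 and 0.95), a collagen-binding proteoglycan that is also in the fibroblast list, then to Olfml1 and Aebp1. Plaur was closest to Itgb4 (0.96 and 0.84), then Prss23 and Capg. Mmp14 was closest to B4galnt1 (0.97 and 0.91), then Plxdc2 and Arrb1. Timp1 was closest to Anxa1 (0.93 and 0.86), then Lsp1 and Irf8, and Timp2 to Frmd8 (0.96 and 0.90), then Pls3 and Ndrg4. Timp3 was closest to Car4 (0.92 and 0.85), then to the member Plaur (0.91 and 0.83) and Tbx3. Plau had the weakest likeness, with Nle1 at 0.79 and 0.78, then Cbx8 and Igfbp6. Among the members themselves, deviations from group means correlated at 0.83 for Plaur with Timp3 and 0.82 for Mmp14 with Timp2, and at -0.088 for Plau with Timp3.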

How the data were processed

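Poly(A) RNA of islets from 22 male mice was sequenced, 1 mouse per library. The authors deposited 1 table of TPM for 57010 gene IDs, each column summing to 1000000, per the file headers. STAR 2.7.10b, MultiQC 1.7 and the build mm39 are named in the submitters' processing notes, and the quantification tool and annotation are not given in the sources used here. TPM divides by a total, so a change in very abundant genes shifts the values of all others, and depth is unknown. Where 147 symbols repeated, the row of highest mean was kept.

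Differences were fitted with limma 3.58.1 in R 4.3.3 on log2(TPM + 1), over 16749 genes with at least 1 TPM in at least 5 libraries, with 4 group means in 1 fit, a mean trend in eBayes and Benjamini-Hochberg adjustment over all genes tested (threshold 0.05). Every adjusted p is from that fit. The same script was tested on simulated data. Sums, shares and correlations were computed in Python 3.11.15 with pandas 2.3.3 and numpy 2.4.6. Replicates are separate mice, numbered in accession order, which pairs nothing.

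The 8 members, the 6 related lists and the 14 marker lists were chosen with earlier results of these data known. Named genes were the members, Mafa, up to 3 list genes of largest absolute change among those called per list and genotype comparison (23 in all), genes overlapping a member, and the 3 most correlated genes of each member, without provisional symbols. A few markers and called counts were named after their values were seen. Alternatives were a pseudocount of 0.1 TPM, quantile normalization, scaling by median of ratios, a library total that leaves out the 13 genes above 1% of any library, no filter, a minimum mean of 5 TPM, the samples of a comparison alone, eBayes without trend, arrayWeights and leaving out each replicate.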

Additional observations from a re-analysis of the deposited data

Results flagged for a closer look

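In 4 of 32 groups of libraries (8 genes in 4 groups), 1 library stood apart from the rest by Dixon's criterion, which chance meets in about 1 in 20 groups. Timp1 was 7.26 TPM in Mixed Het replicate 5, the library highest in all 7 members tested. Mmp14 was 3.88 TPM in Mixed WT replicate 2, the highest of its group. Mmp2 was 1.49 TPM in C57 Het replicate 5, the highest of its group. Mmp9 was 0.0139 TPM in C57 WT replicate 5, the lowest of its group.

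The Het against WT difference itself differed between backgrounds for 11 of the 30 members and list genes that were named and tested, where 7.36% of all genes passed. The list genes were named for their genotype changes, so this is a count over selected genes. The interaction terms (Mixed minus C57, log2 scale) were 1.06 for Plaur, 1.54 for Mmp2, 0.88 for Mmp14, 1.18 for Timp1 and 0.72 for Timp2. Among list genes they were 1.21 for S100a10 (adjusted p 0.0029), 1.04 for Serpine2, 1.41 for Cd44, 0.43 for Bsg (adjusted p 0.00998), 0.72 for Lama5 (adjusted p 0.0253) and -0.75 for Itgav. The Lama5 term lost its call without both replicate 5 libraries (adjusted p 0.0824). S100a10 passed the threshold in opposite directions on the 2 backgrounds.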

How the results depend on the processing

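No paired analysis was possible because the labels carry no replicate numbers, and numbers by accession pair no mice. With a mean TPM of at least 5, which leaves 3 members to test, 2 members were called on Mixed, 1 in the interaction and 2 between Het groups, with 1251 and 2223 genes called between the WT and the Het groups. On C57, 0 members were called under median-of-ratios scaling, quantile normalization or no filter, and 2 with the C57 samples alone. A total without the most abundant genes also gave 1, but Timp1 in place of Timp2. Leaving out 1 replicate gave 0 to 1 members on C57 and 2 to 5 in the interaction, whose genes called ran from 771 (without Mixed Het replicate 5) to 1775. The interaction held 2628 genes with arrayWeights, 714 without a filter (2 members) and 495 without both replicate 5 libraries (2 members). Samples of the comparison alone gave 831 genes between WT groups, and arrayWeights 6568 between Het groups. The split of higher and lower calls moved to 777 and 973 in the interaction (median-of-ratios), and to 1090 and 1340 between WT groups and 1828 and 2015 between Het groups (total without abundant genes), from 774 and 459, 1055 and 836, and 2234 and 1196.

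Signs turned for uncalled values near 0. On C57, Plaur was 0.25 (arrayWeights), 0.018 (pseudocount 0.1), 0.058 (quantile) and 0.14 (both replicate 5 libraries out), Mmp2 0.076 (arrayWeights), 0.026 (quantile) and 0.058 (both out), and Timp3 0.24 (arrayWeights) and 0.13 (both out). With 1 replicate out they ran from -0.13 to 0.14, -0.12 to 0.058 and -0.13 to 0.13. Between WT groups, Plau was -0.031 and Plaur 0.15 (both out), Plaur 0.19 and Timp2 0.079 (arrayWeights), and Plaur 0.044 (pseudocount 0.1). With 1 replicate out, Plau ran from -0.076 to 0.28, Plaur from -0.12 to 0.15, Mmp2 from -0.08 to 0.21 and Timp1 from -0.015 to 0.24. The causes were not tested. Read depth is unknown.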
